A study of Mus musculus with 12 samples.

Results

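A set of 8 genes, of 23479 genes measured, was followed here through 4 groups of cultured mouse B cell lymphoma cells. It joins Fam46c and a paralog with known regulators and surface markers of plasma cells. The 8 were Fam46c, its paralog Fam46a, the transcription factor genes Prdm1 and Irf4, and the surface protein genes Sdc1, Cd38, Slamf7 and Tnfrsf17. All 8 were found in the deposited table. Fam46c was chosen by its difference between 4-OHT and vehicle in TFEB cells, and the other 7 were added by their known role with results of these data in view. For the members, values from that comparison are therefore a description, with no test, and the same holds for every comparison that contains the TFEB libraries in 4-OHT. Tests there are given only for genes outside the members. The comparison of the lines in vehicle also uses the TFEB libraries in vehicle, on which this choice rested. Its p-values for members are therefore not independent of the choice.

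The cells came from 1 lymphoma of a C57BL/6 mouse with the transgenes Eµ-Myc and Eµ-rtTA, which all 12 libraries share, and grew in culture with IL-7. Vector cells carried an empty retrovirus with a puromycin marker, and TFEB cells carried the same kind of virus with TFEB-ERT2, a TFEB in which alanine replaces a serine, fused to a tamoxifen-responsive domain of the human estrogen receptor. Each line received vehicle or 4-hydroxytamoxifen (4-OHT), the ligand of that domain, for 4 days, with 3 libraries in each of the 4 groups. The dose is stated as 250 nM in 1 place and as 250 ng/mL in another, and which unit is right could not be settled.

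Plasma cells are the antibody-secreting end stage of the B lineage. Irf4 and Prdm1, which encodes Blimp-1, drive this step and shut down genes of the B cell state, while Xbp1 expands the secretory apparatus. Fam46c encodes a poly(A) polymerase that lengthens the tails of messenger RNAs, many of them for secreted proteins, and it is often mutated in multiple myeloma, a plasma cell cancer. Syndecan-1 (Sdc1), CD38, SLAMF7 and BCMA (Tnfrsf17) are surface proteins by which human plasma and myeloma cells are recognised. Whether each of them marks mouse plasma cells in the same way was not examined here.

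Libraries held 11849029 to 22109283 reads, and 11390 to 19250 genes had reads, a spread found mainly within groups. Values below are normalized counts, and 3 reads, the floor chosen for a value of 0, were worth 2.21 to 4.15 of them. Tfeb was at 243 ± 17.7 (SD, n = 3) in vector cells and 1676 ± 249 in TFEB cells, both in vehicle, which matches the labels. In 4-OHT it was at 221 ± 23.4 in vector cells and lower than in vehicle in TFEB cells, at 665 ± 72.6 (log2 -1.33, limma adjusted p = 2.49e-08). Markers of B cell precursors were abundant, for example Igll1, a surrogate light chain gene, at 10251 on average in vector cells in vehicle. All other values after ± are also SDs over 3 libraries. Since no label states that replicates came from separate cultures, the p-values reflect the variation among these libraries alone, which may be technical.

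The regions before the RefSeq start sites of Fam46c, Prdm1 and Slamf7 are shown first, as 1 member each of the polymerases, regulators and surface proteins. They are shown because MiT factors such as TFEB bind E-boxes near start sites. Sequences are from RefSeq on GRCm38 (mm10), 5′ to 3′ on the gene's strand, and end where the first annotated exon in the window begins. Capitals mark the general E-box pattern CANNTG. The Prdm1 and Slamf7 stretches lie inside the GENCODE spans of these genes, which reach upstream to chr10:44528501 and chr1:171653035. Fam46c lies at chr3:100489325-100489442 (minus strand, 118 bases shown), Prdm1 at chr10:44458749-44458998 (minus strand) and Slamf7 at chr1:171649008-171649249 (minus strand).
Fam46c: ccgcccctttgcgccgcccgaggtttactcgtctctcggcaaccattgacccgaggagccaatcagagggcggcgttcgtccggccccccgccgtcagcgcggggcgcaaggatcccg
Prdm1: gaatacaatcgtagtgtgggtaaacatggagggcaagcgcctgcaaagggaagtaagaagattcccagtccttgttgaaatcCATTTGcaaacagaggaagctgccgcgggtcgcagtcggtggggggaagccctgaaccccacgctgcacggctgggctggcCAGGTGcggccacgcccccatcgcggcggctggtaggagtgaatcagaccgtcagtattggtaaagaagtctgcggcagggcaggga
Slamf7: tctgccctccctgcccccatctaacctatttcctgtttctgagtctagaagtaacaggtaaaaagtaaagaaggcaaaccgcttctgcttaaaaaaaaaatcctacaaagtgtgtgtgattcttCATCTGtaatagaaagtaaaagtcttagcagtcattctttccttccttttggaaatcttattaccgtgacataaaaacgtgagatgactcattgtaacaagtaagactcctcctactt
The Fam46c stretch holds no CANNTG. The Prdm1 stretch holds CATTTG and CAGGTG, and the Slamf7 stretch CATCTG.

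All 8 members had a RefSeq promoter, with 9 windows in all, since Fam46a has 2. The 250 bases before the start were searched on both strands for CACGTG and CATGTG, the E-box forms that TFEB and its relatives prefer, and for TCACGTGA, which contains the first of these. None of the 9 windows holds any of them. Of 32851 windows of the same length over all RefSeq promoters, 6.02% hold CACGTG, 0.785% TCACGTGA, 12.3% CATGTG and 66.2% CANNTG, which 7 of the 9 windows hold. GC content of the Fam46c window was 78.8%, against a median of 52.4% over all windows and 38% for Slamf7. These letters describe the windows only. The windows of Prdm1, Slamf7 and Cd38 lie wholly inside the GENCODE spans of these genes. Those of Fam46c, Fam46a, Irf4 and Sdc1 lie partly inside. More distant sites, among them those before starts further upstream, were not searched.

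Of the 8 members, 5 had at least 10 normalized counts in at least 3 libraries and were tested with 13111 genes in all: Fam46c, Prdm1, Irf4, Cd38 and Slamf7. Fam46c passed this filter only through the TFEB libraries in 4-OHT. Fam46a, Sdc1 and Tnfrsf17 did not pass it. With 4-OHT in TFEB cells, 3 of the 5 were past the threshold, against 27.5% of all tested genes, 13.7% higher and 13.9% lower. Fam46c was higher, and the surface protein genes Slamf7 and Cd38 were lower. Because this comparison chose Fam46c, nothing is read from the count.

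**Figure D1:**
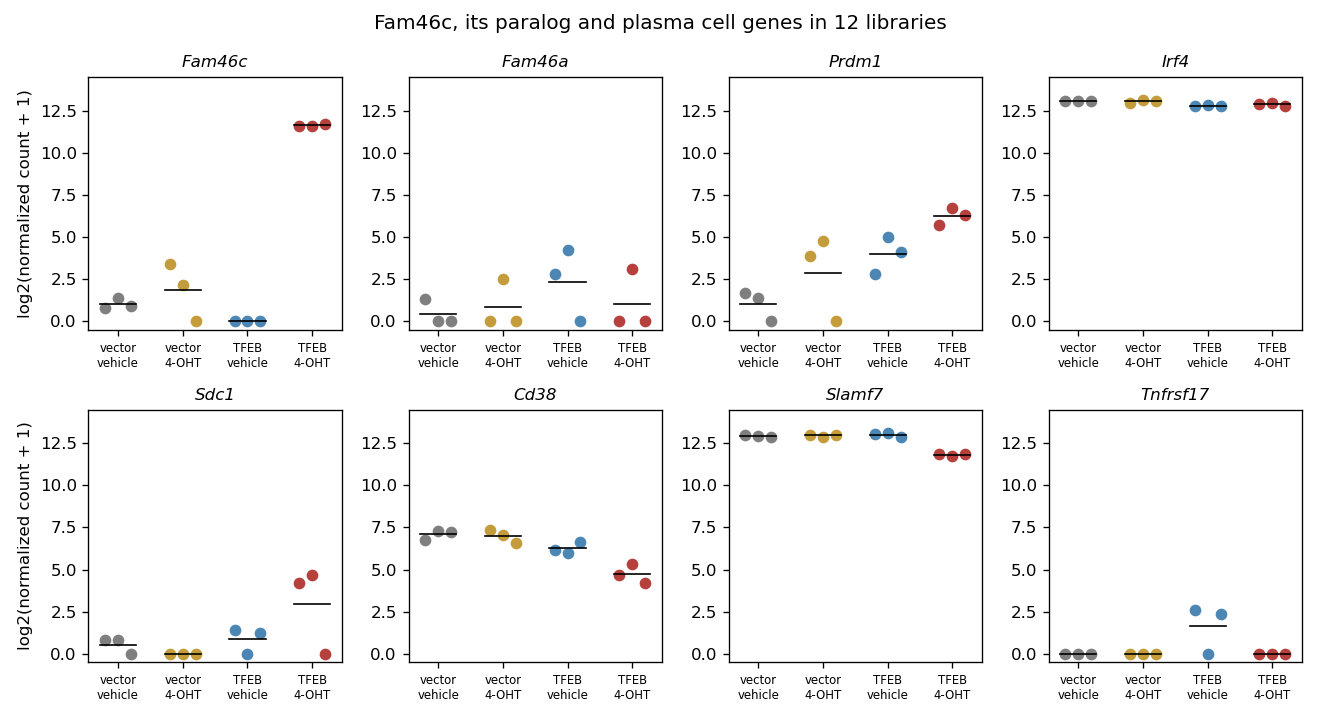
Level of each of the 8 genes in every library, as log2(normalized count + 1), with 1 point per library and a bar at the mean of the 3 log values of each group. Fam46c is high in the 3 TFEB libraries in 4-OHT only, Slamf7 and Cd38 are lowest there, and Irf4 is near the same high level in all 12.

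Fam46c (chr3:100451628-100489324, minus strand, mm10) had 3101, 3146 and 3414 normalized counts in TFEB cells in 4-OHT, a mean of 3220 ± 169. In TFEB cells in vehicle all 3 libraries were at 0. Vector cells had 0.737, 1.57 and 0.871 in vehicle, which is 1, 2 and 1 reads, and 9.66, 3.56 and 0 in 4-OHT, which is 9, 3 and 0 reads. Counted against the chosen floor of 3 reads in the shallowest vehicle library, the level in TFEB cells in 4-OHT was at least 777-fold higher than in vehicle. This bound holds only for that choice of floor. The level rests on many reads. It was 2437 to 3519 reads per library, and its lowest value exceeded the highest of the other 9 libraries. The reads in the vector group in 4-OHT overlapped those in vehicle, and both lie so near the floor that no test is given.

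Of 6 flanking genes on chromosome 3, 4 were already expressed in vehicle. They were chosen by position after the Fam46c values were known. Man1a2, a mannosidase gene 72884 bases away, was at 4260 ± 245 in TFEB cells in vehicle and 5515 ± 211 in 4-OHT. On the other side, Gdap2, 244647 bases away, was at 411 ± 36.9 and 526 ± 39.8, and Wdr3 at 1498 ± 21.9 and 1720 ± 128. Beyond Man1a2, Vtcn1, an immune checkpoint gene, was at 2.30 ± 3.99 and 1.62 ± 2.80 in these groups. Trim45, further on, was at 146 ± 8.97 in vehicle and 95.7 ± 31.4 in 4-OHT, and Spag17, beyond Wdr3, at 16.5 ± 14.3 and 28.7 ± 33.7.

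The paralogs of Fam46c were low, at most at 28.5 normalized counts in any library. Fam46a (chr9:85320439-85327348) had 6.00, 18.1 and 0 in TFEB cells in vehicle and 0, 7.74 and 0 in 4-OHT, with a single library above 0 in each vector group (1.47 in vehicle and 4.75 in 4-OHT). Its groups overlapped, and 17 reads were the most in any library. Fam46b was detected in 4 libraries, at most at 28.5. Fam46d was at 12.2 ± 3.36 in TFEB cells in vehicle, 17.0 ± 13.0 in TFEB cells in 4-OHT, 0 in all vector libraries in vehicle and 0.791 ± 1.37 in vector cells in 4-OHT. Between the lines in vehicle, limma did not call Fam46d (log2 3.69 ± 1.44 SE, adjusted p = 0.149), nor did edgeR, while DESeq2 called it. Fam46c was the only family member to reach 100 in a library, and it did so only in TFEB cells in 4-OHT.

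The genes most like Fam46c over the 12 libraries, among 9181 tested genes with a group mean of at least 100, were Nyx (Pearson r = 0.991, Spearman rho = 0.954), Myo18a (0.990 and 0.844), Tgfbr2 (0.988 and 0.876), Abcd4 (0.988 and 0.762) and Zc3h12d (0.985 and 0.769). These correlations, on log2(normalized count + 1), rest on 1 group that stands apart from 3 others. Nyx, a small leucine-rich proteoglycan gene, went from 418 ± 92.0 to 10620 ± 1638 in TFEB cells. Zc3h12d, which encodes an RNase of immune messenger RNAs, went from 1621 ± 151 to 7175 ± 291. Tgfbr2, a TGF-beta receptor gene, went from 669 ± 76.6 to 3225 ± 73.0.

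Prdm1 (chr10:44437177-44528501, minus strand) was a low gene with its highest level in TFEB cells in 4-OHT. TFEB cells in 4-OHT had 52.7, 105 and 78.6, and in vehicle 6.00, 30.9 and 16.6. Vector cells had 2.21, 1.57 and 0 in vehicle and 14.0, 26.1 and 0 in 4-OHT. All 3 TFEB libraries in 4-OHT lay above the other 9, with means of 78.6 ± 25.9 and 17.8 ± 12.5 in TFEB cells, a 4.41-fold ratio. In vector cells the means were 13.4 ± 13.1 in 4-OHT and 1.26 ± 1.14 in vehicle, and since the vehicle mean is under the floor no fold is given there. On the log2(value + 1) scale the difference was 2.28 ± 1.09 SE in TFEB cells and 1.87 ± 1.09 SE in vector cells, whereas edgeR gave 2.09 and 3.20 and DESeq2 2.14 and 3.35, so the order of the lines depends on the method. In vector cells 1 library at 0 makes the groups overlap (limma adjusted p = 0.864). In vehicle, Prdm1 was higher in every TFEB library than in every vector library, but limma did not call it (log2 2.96 ± 1.09 SE, adjusted p = 0.118), while DESeq2 did (adjusted p = 0.0125), as did limma without vector 4-OHT library 3 (adjusted p = 0.0409). The range over alternatives was 0.0125 to 0.393. In vehicle these values rest on 7, 29 and 12 reads in TFEB cells and 3, 2 and 0 in vector cells. The share of all genes that separate the lines in this way was not counted.

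Irf4 (chr13:30749226-30766976) was an abundant gene in all 4 groups. Vector cells had 8641, 8574 and 8626 in vehicle and 8066, 8826 and 8795 in 4-OHT. TFEB cells had 7148, 7247 and 7061 in vehicle and 7759, 7891 and 7164 in 4-OHT. The order of means was vector vehicle (8614 ± 35.6), vector 4-OHT (8562 ± 430), TFEB 4-OHT (7605 ± 387) and TFEB vehicle (7152 ± 93.0), and the groups of a line overlapped while the lines did not. With 4-OHT Irf4 differed by log2 0.09 ± 0.08 SE in TFEB cells and by -0.01 ± 0.08 SE in vector cells (limma adjusted p = 0.994).

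In vehicle, Irf4 was 1.20-fold lower in TFEB than in vector cells (log2 -0.27 ± 0.08 SE, limma adjusted p = 0.0296). Among the tested members other than Fam46c it was the only one called in that comparison, where 5.38% of all genes were called. The call was lost in 10 of 24 alternatives, among them leaving out any 1 of the 6 vehicle libraries, over a range of 5e-04 to 0.101. Each line was a single transduced population as far as the labels say, so effects of the fusion and differences between the populations cannot be told apart. The genes most like Irf4 over the 12 libraries were Bcorl1 (r = 0.950, rho = 0.944), Klhl7 (0.936 and 0.846) and Tbcel (0.930 and 0.923), all lower in both TFEB groups. Bcorl1, a corepressor gene, was at 473 ± 69.4 and 449 ± 116 in vector cells and at 21.8 ± 11.7 and 34.9 ± 8.49 in TFEB cells. For Prdm1 the most similar were Sfxn3 (r = 0.936, rho = 0.897), the integrin gene Itgb3 (0.921 and 0.895) and the MHC class II gene H2-Aa (0.906 and 0.960).

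Slamf7 (chr1:171632403-171653035, minus strand) encodes a self-binding receptor of plasma and NK cells and was abundant here. TFEB cells had 8478, 8779 and 7368 in vehicle and 3739, 3395 and 3682 in 4-OHT. Vector cells had 8147, 7640 and 7607 in vehicle and 8263, 7607 and 8020 in 4-OHT. The 3 groups other than TFEB cells in 4-OHT overlapped, with means of 7798 ± 303 to 8208 ± 743, and the TFEB libraries in 4-OHT lay below all of them at 3605 ± 185. In TFEB cells this was a 2.28-fold ratio of means, lower in 4-OHT, (log2 -1.18 ± 0.08 SE). With 4-OHT in vector cells the log2 difference was 0.03 ± 0.08 SE (limma adjusted p = 0.975), and between the lines in vehicle 0.07 ± 0.08 SE (limma adjusted p = 0.690).

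Cd38 (chr5:43868553-43912375) encodes an ectoenzyme that consumes NAD and was a low gene here. It had 72.0, 61.9 and 99.5 in TFEB cells in vehicle and 24.8, 40.0 and 17.5 in 4-OHT. Vector cells had 109, 157 and 147 in vehicle and 161, 132 and 93.0 in 4-OHT. Means ran from 138 ± 25.1 in vector cells in vehicle over 129 ± 34.1 in 4-OHT and 77.8 ± 19.5 in TFEB cells in vehicle to 27.4 ± 11.5 in TFEB cells in 4-OHT, where every library was below the other 9. The difference with 4-OHT in TFEB cells was log2 -1.52 ± 0.41 SE, a 2.84-fold ratio of means, lower in 4-OHT. In vehicle all 3 TFEB libraries lay below the 3 vector libraries, but the difference did not pass (log2 -0.83 ± 0.41 SE, limma adjusted p = 0.284), nor did that with 4-OHT in vector cells (-0.12 ± 0.41 SE, limma adjusted p = 0.983). The noncoding genes Gm16015 and Gm37787 are annotated on the opposite strand within Cd38 and Slamf7, and no label or header says whether counting used the strand.

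Sdc1 and Tnfrsf17, which encode a proteoglycan and a receptor of plasma cell survival ligands, were almost without reads. Sdc1 (chr12:8771323-8793715) had 17.2, 24.5 and 0 in TFEB cells in 4-OHT and at most 1.71 in any other library. One library in 4-OHT at 0 makes that group overlap with the rest. Tnfrsf17 (chr16:11313812-11320074) had 6 and 3 reads in 2 of the TFEB libraries in vehicle and none in the other 10 libraries, so a level in 4-OHT was not detectable at this depth.

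On a scale of normalized counts per kilobase of annotated exon, which allows genes to be compared, TFEB cells in 4-OHT had 1551 ± 78.9 of Irf4, 788 ± 40.3 of Slamf7 and 528 ± 27.7 of Fam46c. Next came Prdm1 at 14.1 ± 4.64, Cd38 at 7.05 ± 2.96 and Sdc1 at 3.65 ± 3.31, of which the last 2 overlap within their SDs. In vector cells in vehicle, Irf4 (1757 ± 7.26) and Slamf7 (1704 ± 66.2) were followed by Cd38 (35.4 ± 6.46), and Fam46c, Prdm1 and Sdc1 were all under 0.3. With 4-OHT in vector cells, 0 of the 4 tested members other than Fam46c were called by limma, edgeR or DESeq2, and 0 had an unadjusted limma p under the threshold. Over all genes limma called 0.0153% in that comparison.

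The wider plasma cell program was described from 3 lists written by function: 12 regulators, 14 surface proteins and 47 genes of the secretory apparatus, members left out. These lists and those described below were written with earlier results of these data known. Their counts are therefore a description and no independent support. Of the 67 tested among these 73, 32 rose and 10 fell with 4-OHT in TFEB cells (limma), where 13.7% of all genes were called higher and 13.9% lower, with a median log2 change of 0.37 against 0.04 over all genes. Most of the rises, 24, were in the secretory list, where 44 of 47 genes reached 100 in a library. The sum of that list was already 106250 to 110570 in vector cells in vehicle, so these genes are not particular to plasma cells. In vector cells 0 of the 67 were called by limma or edgeR, 1 was called by DESeq2, and 11 had an unadjusted limma p under the threshold. Of these 11, 10 were in the secretory list. The difference between the effects in the 2 lines was called for 23 of the 67, 18 higher and 5 lower in TFEB cells, where 15.8% of all genes were called.

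**Figure D2:**
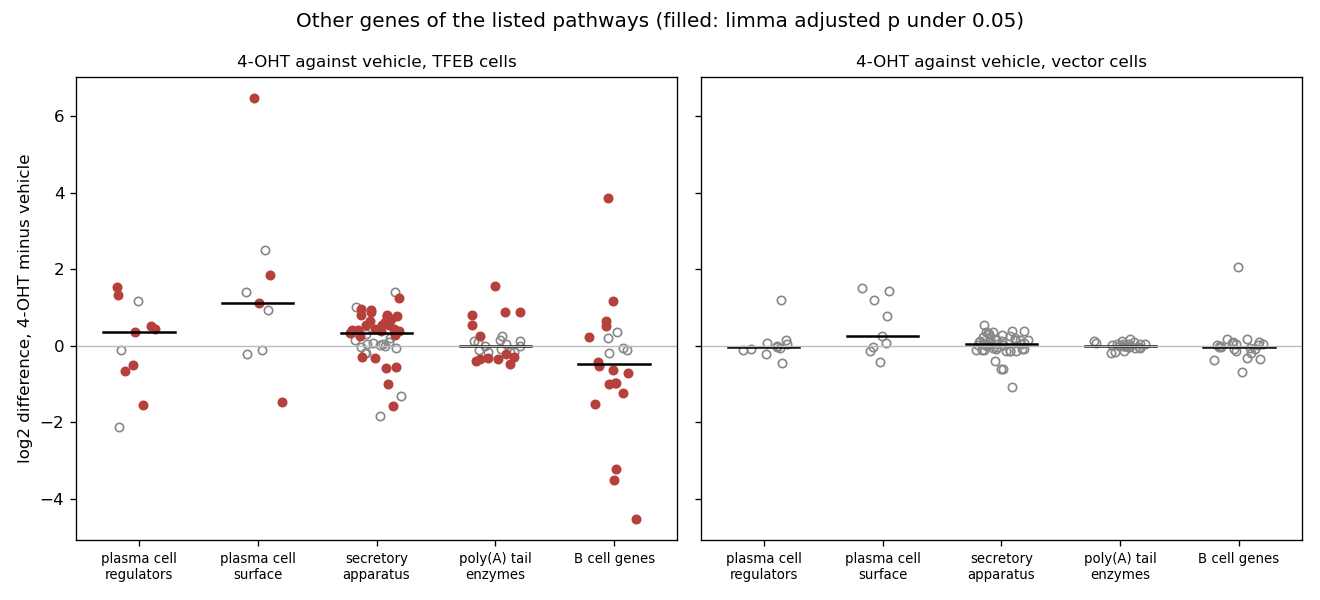
Change with 4-OHT of the tested genes of 5 lists, members left out, in TFEB cells (left) and vector cells (right). Each point is a gene, filled where the limma adjusted p is under 0.05, and bars are list medians. In TFEB cells the secretory genes lie mostly above 0 and the B cell genes mostly below it, and no point is filled in vector cells.

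Among 11 tested regulators 5 rose and 3 fell. Xbp1, which drives the secretory program, went from 3729 ± 354 to 10793 ± 231 in TFEB cells (log2 1.54 ± 0.09 SE, limma adjusted p = 1.29e-14), against 2405 ± 131 and 2221 ± 286 in vector cells. In vehicle, Xbp1 was already called higher in TFEB than in vector cells (log2 0.63, limma adjusted p = 1.61e-05). Batf, an AP-1 factor that works with IRF4, rose from 144 ± 35.7 to 358 ± 72.6. Ikzf3, which encodes Aiolos, fell from 4708 ± 317 to 1609 ± 151. Zbtb20, a repressor needed for long-lived plasma cells, fell from 376 ± 54.7 to 236 ± 36.3 (limma adjusted p = 0.0102), a call that did not hold when library 2 of TFEB cells was left out in vehicle (adjusted p = 0.0637) or in 4-OHT (0.0679). The fall of Bhlha15, which encodes the secretory cell factor MIST1, also passed (log2 -0.52).

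Of 9 tested surface genes 3 rose and 1 fell. Cxcr4, the chemokine receptor that guides plasma cells to the bone marrow, rose from 815 ± 69.8 to 2926 ± 131 (limma adjusted p = 2.39e-15). In vector cells Cxcr4 was at 1202 ± 54.8 in vehicle and 1258.5 ± 132 in 4-OHT. In vehicle it was called lower in TFEB than in vector cells (log2 -0.56, limma adjusted p = 0.000459). Tnfrsf13b, which encodes TACI, a relative of BCMA that binds the same ligands, rose from 407 ± 15.0 to 885 ± 114. Cd28 went from 6.96 ± 8.61 to 401 ± 28.8. Itga4, an integrin subunit, fell from 5579 ± 233 to 2028 ± 336.

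Of 47 tested secretory genes, 24 rose and 6 fell, with a median log2 change of 0.33. Edem1, which extracts misfolded glycoproteins, rose from 3110 ± 216 to 7409 ± 231 (limma adjusted p = 7.19e-14), and the chaperone gene Calr from 5522 ± 735 to 10657 ± 523. Mzb1, a chaperone of antibody assembly, rose from 5491 ± 152 to 6913 ± 537. Ero1l, an oxidase of disulfide formation, fell from 5680 ± 1349 to 1871 ± 276, and Derl3, a retrotranslocation factor, from 414 ± 139 to 201 ± 49.3 with overlapping groups. The J chain gene Igj, which joins secreted IgM and IgA, had 41.4 ± 19.4 in vehicle and 16.9 ± 11.5 in 4-OHT and did not pass (limma adjusted p = 0.172). With 4-OHT in vector cells 0 of the 47 were called by limma. Yet 10 had an unadjusted limma p under the threshold, all in the same direction as in TFEB cells. Among them Calr was at 4882 ± 393 in vehicle and 6409 ± 1312 in 4-OHT, and Ero1l at 3864 ± 793 and 2675 ± 1057 (limma adjusted p = 0.286 and 0.460). The difference between the lines was called for 15 of the 47, 12 higher and 3 lower in TFEB cells, beside 15.8% of all genes.

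Of 22 tested genes of the B cell state that plasma cells shut down, 12 fell and 5 rose, beside 13.9% lower and 13.7% higher over all genes, with a median log2 change of -0.49 against 0.04. The list as a whole was not tested. Pax5, the B lineage factor, fell from 5014 ± 666 to 2120 ± 310 (limma adjusted p = 1.80e-11), and Bach2, a repressor of Prdm1, from 7341 ± 521 to 3715 ± 130. Id3 fell from 767 ± 74.1 to 67.4 ± 21.2, Ebf1 from 6621 ± 376 to 2306 ± 82.6, and the kinase gene Blk from 139 ± 52.6 to 8.51 ± 7.37. Bcl6, the repressor of the germinal centre, was at 54.6 ± 4.26 and 54.8 ± 22.6 and did not pass (limma adjusted p = 0.956). Ccr7, a homing receptor of naive lymphocytes, rose from 145 ± 10.1 to 2097 ± 95.9, and Cd79a, S1pr1, Blnk and Cd37 rose as well. In bulk RNA fewer cells of a type and less RNA per cell cannot be told apart.

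**Figure D3:**
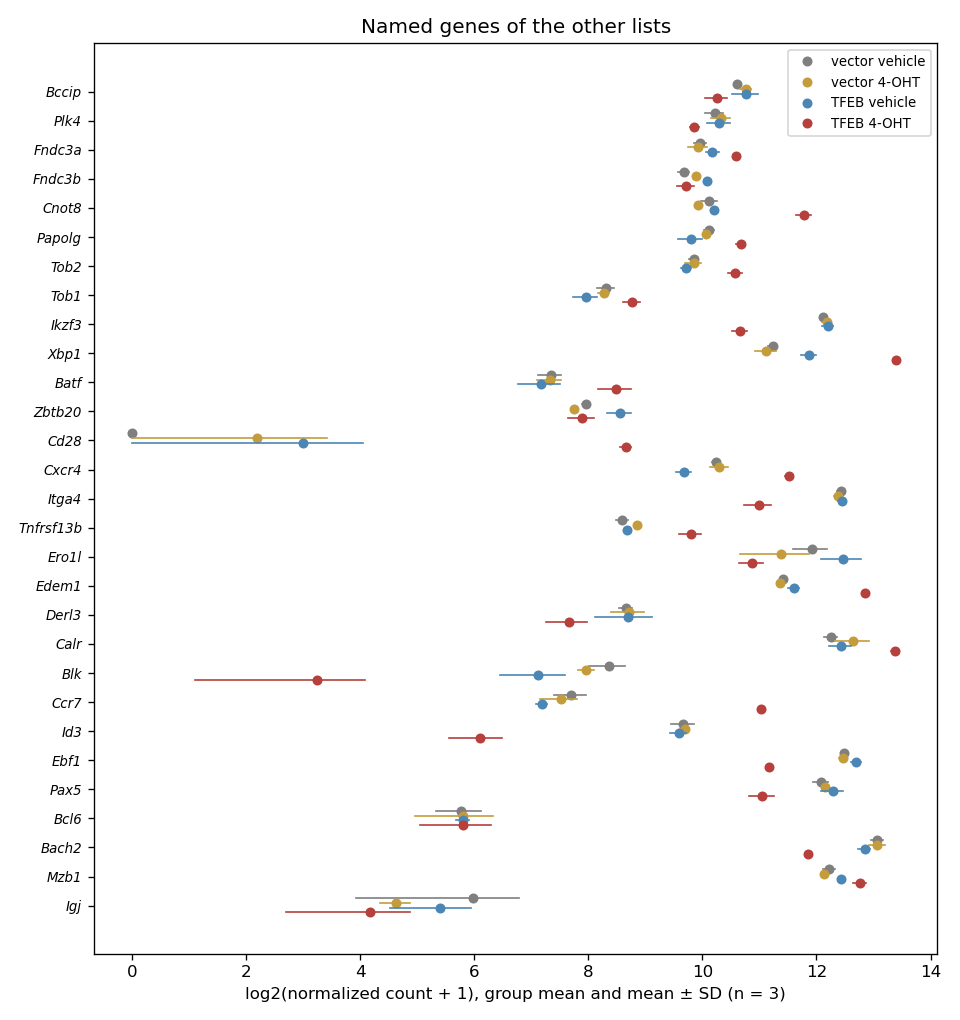
Group means of the named genes of the other lists, as log2(normalized count + 1), with lines from mean minus SD to mean plus SD (n = 3, limits taken before the log). The red points of TFEB cells in 4-OHT stand apart for Xbp1, Edem1, Cxcr4 and Ccr7 on the high side and for Ikzf3, Id3, Ebf1 and Blk on the low side, and those of Bcl6 do not.

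The enzymes and factors that set poly(A) tail length moved in both directions. Of 26 tested, 6 rose and 7 fell with 4-OHT in TFEB cells, beside 13.7% higher and 13.9% lower over all genes. The median log2 change was -0.0045. Cnot8, a deadenylase of the CCR4-NOT complex, rose from 1181 ± 18.6 to 3518 ± 322 (limma adjusted p = 4.70e-14). The poly(A) polymerase gene Papolg rose from 887 ± 125 to 1631 ± 87.3, and Tob1 and Tob2, adaptors that recruit deadenylases, rose by 0.80 and 0.87 on the log2 scale. All 4 genes of known FAM46C partner proteins were called, beside 27.5% of all genes, and nothing is read from so small a count. Fndc3a rose from 1154 ± 91.3 to 1530 ± 38.7, and Bccip, Plk4 and Fndc3b fell by 0.50, 0.43 and 0.38 on the log2 scale. The Plk4 call was lost without the library with the most genes detected in each of the 3 groups other than vector cells in vehicle (limma adjusted p = 0.0736) and the Fndc3b call without TFEB 4-OHT library 1 (0.0614).

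T and NK cells also express several of these genes, among them Cd28 and Slamf7. The sum of 20 T and NK cell markers was 1410 to 1568 in TFEB cells in vehicle and 1832 to 2123 in 4-OHT, of which 6 genes reached 100 in a library (Cd2, Cd5, Lck, Lat, Zap70 and Prf1). Of 10 tested, 3 rose and 0 fell by limma: Lat from 225 ± 51.9 to 537 ± 29.3 (adjusted p = 9.01e-05), Cd2 from 133 ± 4.02 to 248 ± 13.7 (0.00162) and Prf1 from 22.5 ± 12.6 to 122 ± 55.0 (0.00285). By unadjusted p 6 of the 10 passed, edgeR called 3 and DESeq2 4. Among the 6 was Cd3g, which was lower, at 11.9 ± 6.31 in vehicle and 1.94 ± 3.36 in 4-OHT (limma adjusted p = 0.106). Lck was at 544 ± 177 and 527 ± 55.8 and Zap70 at 469 ± 66.4 and 344 ± 88.4, and neither passed (limma adjusted p = 0.997 and 0.315). Cd5 was at 18.0 ± 13.7 and 107 ± 24.6 and Nkg7 at 3.21 ± 4.67 and 32.4 ± 9.59, and neither passed (limma adjusted p = 0.0749 and 0.0580). The T cell receptor and coreceptor genes Cd3e, Cd3d and Cd4 were near 0, with means of 9.43, 8.18 and 0.323 in TFEB cells in 4-OHT. Of 19 macrophage and myeloid markers, whose sum was 272 to 357 in vehicle and 285 to 529 in 4-OHT, only Mrc1 and Cd68 reached 100 in a library, and Lyz2 and Cd14 had means of 1.72 and 5.16 in 4-OHT. Of the 6 tested, Cd68 rose from 86 ± 25.5 to 212 ± 29.8 (limma adjusted p = 0.00574) and Mrc1 fell from 145.5 ± 17.7 to 34.5 ± 10.0 (3.07e-05). The sum of 15 markers of B cell precursors was 65600 to 68988 in vehicle and 36914 to 39549 in 4-OHT. Their part in the member results was not tested.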

How the data were processed

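Libraries were made from total RNA, and the labels' protocols name a Nugen Ovation kit for mouse RNA. The deposited signal is a normalized read count per gene, deposited by the authors with no depth beside it; its values are those of gene counts divided by 1 factor per library. STAR 2.5.3, HTSeq 0.6.1, DESeq2 1.6.3 and mm10 are named in the submitters' processing notes, with no role given. Annotation and strand setting were not stated. In every library 100% of values above 0 were whole multiples (tolerance 0.001) of the value of 1 read, so whole reads were recovered, with 11849029 to 22109283 per library. Floors cover counting error only.

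limma 3.58.1 (R 4.3.3) was fitted to log2(value + 1) of all 12 libraries with 1 mean per group and a variance trend, over the 13111 genes with at least 10 in at least 3 libraries. Log2 differences are on that scale, which understates changes of low genes. P-values were adjusted over all tested genes (Benjamini-Hochberg, threshold 0.05). Alternatives were edgeR 4.0.16 and DESeq2 1.42.0 on recovered reads, other pseudocounts, filters and scalings, array weights, a replicate block and leaving out libraries. Scripts were tested on simulated counts. Exon lengths and positions are from GENCODE M21 (mm10).

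The members and gene lists were chosen with earlier results of these data known. All 8 members are named, with Tfeb, Fam46b, Fam46d, Xbp1, Pax5, Bcl6, Bach2, Mzb1 and Igj, up to 4 called genes per list with the largest change and a mean of at least 100, and the 5 genes most like Fam46c (3 each for Prdm1 and Irf4). Bhlha15, Cd79a, S1pr1, Blnk, Cd37, the flanking genes and the marker genes were picked after their values were seen. Lists of dendritic cell markers (sum over 10 genes of 3972 to 6661, mostly Tcf4), stromal and endothelial markers (703 to 1062 over 11 genes, mostly Pecam1) and erythroid and platelet markers (13.9 to 135 over 10 genes) were summed as well. Spi1 and Ly6g were not analysed here.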

Additional observations from a re-analysis of the deposited data

Results flagged for a closer look

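The difference between the effects of 4-OHT in the 2 lines was past limma's threshold (adjusted p under 0.05) for 26 of the named genes outside the members, and for 15.8% of all tested genes. Most of the 26 were named for their large change in TFEB cells, whose libraries this difference uses, so the count is a description and no independent support. As TFEB minus vector on the log2 scale, the plasma cell regulators differed by 1.66 for Xbp1, 1.33 for Batf and -1.61 for Ikzf3. Surface protein genes differed by 5.29 for Cd28, 1.78 for Cxcr4, 0.85 for Tnfrsf13b and -1.43 for Itga4. Among secretory genes the differences were 1.31 for Edem1, 0.579 for Calr, 0.423 for Mzb1, -0.981 for Ero1l and -1.04 for Derl3. B cell genes differed by 4.04 for Ccr7, -4.16 for Blk, -3.56 for Id3, -1.5 for Ebf1, -1.32 for Pax5 and -0.983 for Bach2. Poly(A) tail genes differed by 1.76 for Cnot8, 0.943 for Papolg, 0.873 for Tob2 and 0.842 for Tob1, and genes of FAM46C partners by 0.444 for Fndc3a, -0.654 for Bccip, -0.54 for Plk4 and -0.602 for Fndc3b.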

How the results depend on the processing

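Over 24 alternatives the number of members past the threshold with 4-OHT in TFEB cells was 3 or 4. It was 4 with a pseudocount of 10, with only the groups compared and with array weights. In all others it was 3, also when single libraries were left out. Because this comparison chose Fam46c, nothing is read from the count. In vector cells 0 of the 4 tested members other than Fam46c were called (0 to 0 over single libraries). Between the lines in vehicle, 1 member other than Fam46c was called in the main analysis. The count was 0 without a filter, without a variance trend, with only the groups compared and without 3 gene-rich libraries. These are, for every group but vector vehicle, the library with most genes detected. The count was 2 with DESeq2, and 0 to 2 when single libraries were left out. The 23 other plasma cell genes called for the difference between lines became 14 without a variance trend and 20 to 25 when single libraries were left out. Of these genes, the 0 called with 4-OHT in vector cells became 1 with DESeq2, 1 with array weights and 4 without vector 4-OHT library 2 (0 to 4 over single libraries). The counts of 32 higher and 10 lower plasma cell genes and of 12 lower B cell genes kept within 29 to 32, 8 to 10 and 11 to 12 when single libraries were left out. Without the 3 gene-rich libraries they were 28, 8 and 11, and edgeR called 30, 10 and 11 of the same genes. Of the single-gene results, 0 were reversed. The Fam46c log2 difference in TFEB cells, 11.65 with a pseudocount of 1, was 8.33 with a pseudocount of 10 and 14.65 in edgeR, and is no bound. Whether replicate numbers pair libraries is not stated and could not be settled from the values. Of 18 same-numbered pairs 4 had correlated deviations above 0.1 (range -0.54 to 0.67), and 4 of 12 libraries correlated best with their own number. The highest value, 0.67, was between library 2 of vector cells and library 2 of TFEB cells, both in 4-OHT. These libraries had the most genes detected (19057 and 19250), so the deviations may follow detection rather than pairing. With a replicate block 2 counts moved, within 1.5 times: lower B cell genes to 11 and the difference between lines to 24; the other counts (3, 0 and 1 members, 32 and 10 plasma cell genes, 0 in vector cells) were equal. Depth limits statements on Fam46a, Sdc1 and Tnfrsf17, whose values rest on at most 19 reads per library.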
